A study of Mus musculus with 6 samples.

Results

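The gates and switches of glucose and lactate metabolism were followed in whole mouse hearts at embryonic day 9.5. They are 10 genes, listed by function and matched by symbol to 10 of the 30323 gene IDs in the deposited count table. Slc2a1 and Slc2a3 encode the glucose transporters GLUT1 and GLUT3, and Slc16a1 and Slc16a3 the lactate transporters MCT1 and MCT4. Hk1 and Hk2 encode hexokinases, Pfkfb3 and Pfkfb4 the enzymes that make and break down fructose 2,6-bisphosphate, Ldha the A subunit of lactate dehydrogenase, and Pdk1 a kinase that switches off pyruvate dehydrogenase. The group called MCKO had a knockout of Cdc42 in the myocardium and carries the genotype label CDC-42 KO. The controls are labelled C57BL/6 ctrl. Each group had 3 libraries, and the design text of the series gives 3 hearts per set. The Cre driver, the deleted exon, the strain of the knockout, the control alleles and any litter are not given in the labels. The question put to these genes is how they differ between hearts with the knockout of Cdc42 in the myocardium and control hearts.

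Glucose enters a cell through GLUT proteins and is trapped there by hexokinase, which adds a phosphate. Phosphofructokinase is the main control point further down, and fructose 2,6-bisphosphate is its strongest activator. At the end of glycolysis pyruvate either enters the mitochondrion through pyruvate dehydrogenase or is reduced to lactate by lactate dehydrogenase, and lactate leaves the cell with a proton through MCT proteins. The embryonic heart relies on glycolysis more than the adult heart does. Several of these genes are classical targets of hypoxia-inducible factor (HIF) and of MYC.

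Promoter letters for 9 of the 10 genes were found in a RefSeq table (GRCm38.p6), in which Slc2a3 is absent. These 9 include Pfkfb4, whose expression could not be tested, and so differ from the 9 tested genes below. The short motif ACGTG or GCGTG, the core of the hypoxia response element, was searched on both strands, so that CACGT and CACGC also count, and overlapping matches were joined into 1 site. The E-box CACGTG, which MYC and other factors bind, contains this motif and cannot be told from it by these letters. In the 250 bases before a start site the motif occurred for 9 of the 9 genes, against 59.9% of the tested genes that have a promoter in the table (6617 of 11039). The 9 genes have 13 start sites in the table, and 11 of these windows held the motif, against 54.0% of the windows of tested genes. With the window of highest GC content taken for each gene, the median GC content was 67.2%, against 61.2% for tested genes. The part of GC content in the share was not tested. The windows below are those of the 9 genes that hold the motif and overlap no annotated exon. They are written 5′ to 3′ on the strand of the gene, with the sites in capitals.

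Slc16a1 chr3:104638414-104638663 (+): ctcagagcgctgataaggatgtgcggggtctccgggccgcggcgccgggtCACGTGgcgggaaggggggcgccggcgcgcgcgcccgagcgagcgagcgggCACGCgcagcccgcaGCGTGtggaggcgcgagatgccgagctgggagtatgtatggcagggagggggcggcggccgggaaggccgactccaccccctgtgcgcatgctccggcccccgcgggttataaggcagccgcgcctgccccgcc
Hk2 chr6:82774455-82774704 (-): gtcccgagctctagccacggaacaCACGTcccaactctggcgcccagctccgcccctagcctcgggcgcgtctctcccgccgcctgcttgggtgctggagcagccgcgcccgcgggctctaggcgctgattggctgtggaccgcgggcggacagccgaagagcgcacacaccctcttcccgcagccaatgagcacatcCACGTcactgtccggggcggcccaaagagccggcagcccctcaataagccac
Ldha chr7:46845554-46845803 (+): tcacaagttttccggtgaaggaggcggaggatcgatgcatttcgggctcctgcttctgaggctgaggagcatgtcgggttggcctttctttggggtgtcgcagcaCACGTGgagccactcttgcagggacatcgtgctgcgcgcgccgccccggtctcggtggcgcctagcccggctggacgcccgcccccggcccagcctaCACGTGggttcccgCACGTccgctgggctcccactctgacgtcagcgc
Ldha chr7:46846832-46847081 (+): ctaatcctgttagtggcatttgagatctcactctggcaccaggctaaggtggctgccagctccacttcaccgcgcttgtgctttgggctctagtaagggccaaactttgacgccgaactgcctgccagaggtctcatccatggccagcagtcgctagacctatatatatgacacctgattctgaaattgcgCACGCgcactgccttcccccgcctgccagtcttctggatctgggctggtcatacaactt
Pdk1 chr2:71872974-71873223 (+): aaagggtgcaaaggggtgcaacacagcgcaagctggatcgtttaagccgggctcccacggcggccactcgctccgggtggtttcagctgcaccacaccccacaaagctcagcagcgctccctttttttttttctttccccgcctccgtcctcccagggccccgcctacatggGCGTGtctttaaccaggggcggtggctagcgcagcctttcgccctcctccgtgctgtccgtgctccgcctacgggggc

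The Slc16a1 window and the first Ldha window held 3 sites each and the Hk2 window 2. The second Ldha window and the Pdk1 window held 1 each. For the Slc16a1 window and the first Ldha window, the bases just after the start were not found whole in any annotated transcript of the gene. Both Ldha windows lie inside the annotated gene, between its exons. Slc16a1 and Hk2, shown side by side here, differ in their values below, at 1.15-fold and 3.39-fold. A match is a description of letters and shows no binding.

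Cdc42, the deleted gene, stood at 238.5 to 247.6 CPM (CPM are counts divided by the total of their library and put on a common scale) in the MCKO libraries and at 377.3 to 423.7 CPM in controls, a fall by 0.66 on the log2 scale (SE 0.047, edgeR adjusted p = 2.93e-06). The libraries held 19256840 to 34246477 counts. Heart muscle markers summed to 37301 to 40936 CPM in controls and 43846 to 45505 CPM in MCKO, and 5 of 12 rose and 1 fell. Primitive red cell markers went from 3307 to 3714 CPM up to 7167 to 7683 CPM, and 12 of 12 rose. Of 12 endothelial and endocardial markers 10 rose and 2 fell (1162 to 1187 against 1316 to 1343 CPM), and of 10 tested endoderm and epithelial markers 7 rose and 3 fell (171 to 187 against 273 to 299 CPM). Of 7 tested epicardial markers 6 fell (203 to 213 against 82.7 to 85.0 CPM), and of 9 mesenchymal markers 7 fell (517 to 532 against 192 to 200 CPM). Of 5 tested leukocyte markers 2 fell (16.9 to 17.7 against 5.49 to 6.99 CPM). No marker was at 0 in all 6 libraries. These lists changed, in different directions, between the same groups that every result below compares, and their part in the results was not tested. In whole hearts, more cells of a type and more RNA per cell cannot be told apart.

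Of the 9 genes tested, 9 rose in MCKO and 0 fell (edgeR adjusted p under 0.05), where 29.3% of the 14697 tested genes rose and 29.1% fell by the same rule. For 9 of 9, every MCKO library lay above every control library, which was so for 28.3% of all tested genes. Slc2a1, Slc2a3, Slc16a3, Hk2, Pfkfb3 and Pdk1 rose at least 2-fold, 6 of 9, against 7.03% of tested genes. Slc16a1, Hk1 and Ldha rose by less. The median log2 fold change of the 9 was 1.32, and that of all tested genes 0.00057. The 10 genes were chosen with earlier results of these data known, so these comparisons are a description and no independent test. None of the 9 passed the filter on low counts through 1 group alone, since the lowest value in any library was 45.6 CPM, for Pfkfb3. The 10 genes together took 0.488 to 0.526% of the counts in controls and 1.07 to 1.11% in MCKO. Of this summed rise, Ldha made up 28.8%, Slc2a1 23.5% and Slc2a3 20.5%, while Slc16a1 made up 0.607%.

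**Figure D1:**
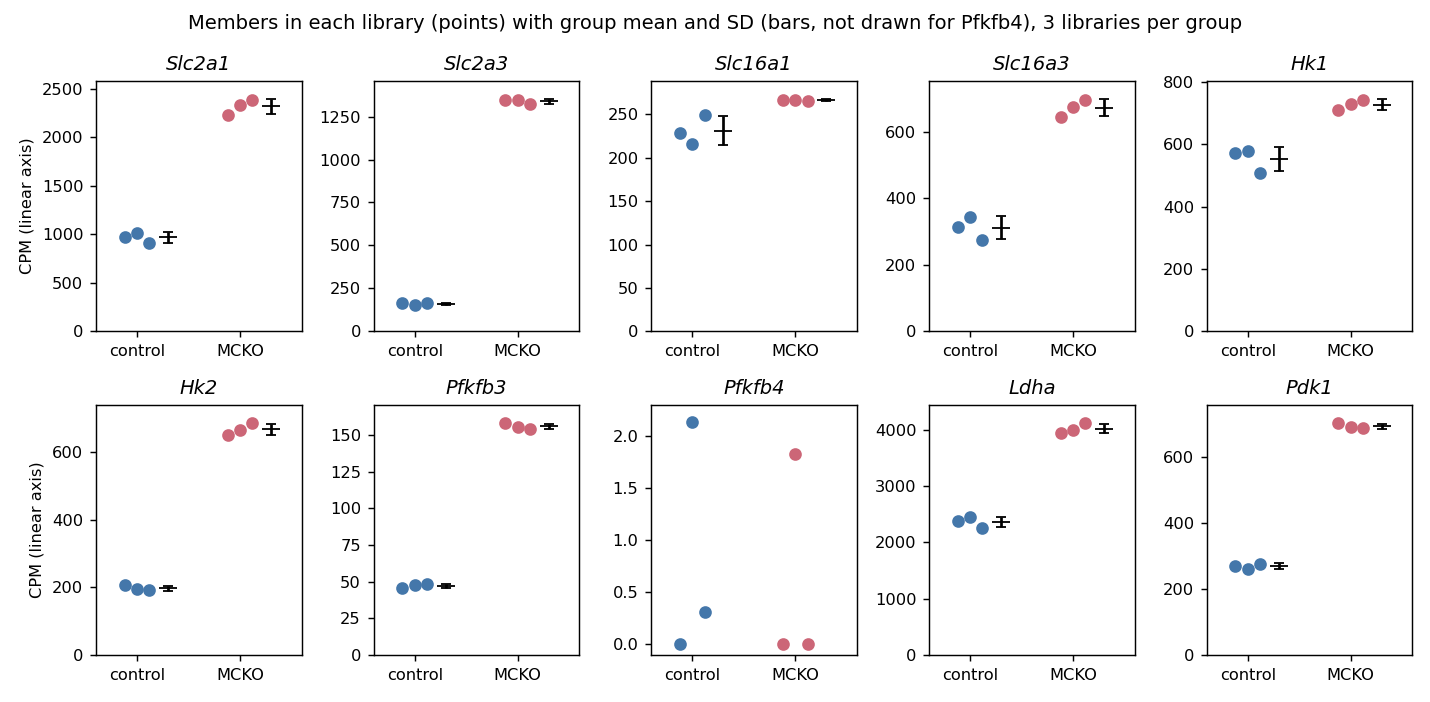
CPM of each of the 10 genes (linear axes, 1 panel per gene) in the 3 control (blue) and 3 MCKO (red) libraries, with the group mean and SD beside the points, except for Pfkfb4. In 9 panels all MCKO points lie above all control points, from 1.15-fold for Slc16a1 to 8.42-fold for Slc2a3, and Pfkfb4 is at 0 in 3 of 6 libraries.

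The RNA for GLUT3 changed most among the gates. Slc2a3 (ENSMUSG00000003153, chromosome 6, 122727809 to 122801640, minus strand, GRCm38) is the high-affinity transporter best known from neurons, placenta and early embryos. It measured 162.3, 152.5 and 162.9 CPM in controls 1, 2 and 3 and 1350, 1349 and 1322 CPM in MCKO 1, 2 and 3. The groups were far apart, and the spread within each was small beside the gap. The mean was 8.42-fold higher, a rise of 3.13 on the log2 scale (SE 0.042, edgeR adjusted p = 3.93e-10), which ranked 81 among the 14697 tested genes.

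RNA for GLUT1, the widespread basal transporter, rose less in proportion but more in amount. Slc2a1 (ENSMUSG00000028645, chromosome 4, 119108711 to 119137983, plus strand) measured 974.9, 1017 and 909.9 CPM in controls and 2234, 2334 and 2391 CPM in MCKO. It already stood above 99.4% of tested genes in controls, and the groups did not overlap. It rose by 1.32 on the log2 scale (SE 0.052, edgeR adjusted p = 7.55e-08). The ratio of Slc2a3 to Slc2a1 counts within a library was 0.167, 0.150 and 0.179 in controls and 0.604, 0.578 and 0.553 in MCKO. This was a 3.51-fold shift toward Slc2a3 RNA. The exact 2-sided permutation test of this ratio gave p = 0.1, adjusted 0.12 over 6 ratios, and 3 libraries against 3 cannot go below 0.1.

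Other hexose transporters went both ways. Of 12 listed, 7 could be tested, and 2 rose and 3 fell. Over all tested genes 29.3% rose and 29.1% fell, and the difference of this short list from those shares was not tested. The same shares are the background for the counts of markers above and of the other lists below. Slc2a4, the insulin-responsive GLUT4 of heart and skeletal muscle, rose from 17.7 ± 0.98 to 42.2 ± 0.59 CPM (SD, n = 3 each), by 1.32 (SE 0.059) on the log2 scale. That is the size of the Slc2a1 rise, from a level far lower. Slc2a8, an intracellular transporter, rose by 0.72 (SE 0.094). Slc2a13, a proton-coupled myo-inositol transporter, fell by 0.56 (SE 0.11) and Slc2a12 by 0.48 (SE 0.11). Slc2a10, named after its value was seen, fell by 0.95 (SE 0.13). These 3 genes were under 10 CPM in both groups.

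The gene for the exporter MCT4 rose and that for the bidirectional carrier MCT1 moved little. Slc16a3 (ENSMUSG00000025161, chromosome 11, 120948480 to 120960868, plus strand), typical of strongly glycolytic cells, measured 313.9, 343.9 and 275.2 CPM in controls and 645.3, 676.2 and 697.5 CPM in MCKO. It rose by 1.18 on the log2 scale (SE 0.080, edgeR adjusted p = 6.15e-06), and the lowest MCKO library lay far above the highest control. Slc16a1 (ENSMUSG00000032902, chromosome 3, 104638668 to 104658462, plus strand), which carries lactate in either direction, measured 229.1, 216.0 and 249.1 CPM in controls and 266.8, 267.2 and 265.2 CPM in MCKO. The groups did not overlap, but the gap from the highest control to the lowest MCKO library was smaller than the spread among controls. The rise of 0.26 (SE 0.051, edgeR adjusted p = 0.00161) was the smallest of the 9. The Slc16a3 to Slc16a1 ratio went from 1.37, 1.59 and 1.10 to 2.42, 2.53 and 2.63, a 1.88-fold shift (exact permutation p = 0.1, adjusted 0.12).

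The gene for the chaperone that brings MCT1 and MCT4 to the cell surface rose too. Bsg, which encodes basigin, went from 464 ± 34 to 1069 ± 38 CPM, by 1.27 (SE 0.059), close to the change of Slc16a3. Emb, encoding embigin, the partner of other MCT proteins, is named after its value was seen and rose by 0.20 (SE 0.048). Of the 11 tested genes of this list 5 rose and 1 fell. Slc16a6 rose by 0.82 (SE 0.051), and reads shared with Amz2, a gene with a near-identical transcript, make its value uncertain. Slc16a10, which carries aromatic amino acids, fell by 0.52 (SE 0.067). Slc16a4, named after its value was seen, rose by 0.49 (SE 0.19, edgeR adjusted p = 0.0489), with groups that overlapped.

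Hk2 rose to nearly the count of Hk1, a comparison that does not take the lengths of their transcripts into account. Hk2 (ENSMUSG00000000628, chromosome 6, 82725025 to 82774454, minus strand), the inducible form of muscle and tumours, measured 206.3, 193.4 and 190.5 CPM in controls and 650.8, 665.4 and 684.9 CPM in MCKO. The groups were far apart, and Hk2 rose by 1.82 on the log2 scale (SE 0.046, edgeR adjusted p = 5.37e-09). Hk1 (ENSMUSG00000037012, chromosome 10, 62268855 to 62379908, minus strand), the housekeeping form, measured 571.5, 579.1 and 508.3 CPM in controls and 708.3, 729.5 and 743.0 CPM in MCKO. It rose by 0.46 (SE 0.056, edgeR adjusted p = 9.89e-05), a change larger than the spread in either group but well under that of Hk2. The Hk2 to Hk1 ratio was 0.361, 0.334 and 0.375 in controls and 0.919, 0.912 and 0.922 in MCKO, 2.58-fold higher (exact permutation p = 0.1, adjusted 0.12).

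Of the 3 other tested genes of glucose phosphorylation 1 rose and 2 fell, all from low levels. Adpgk, which uses ADP in place of ATP, fell by 0.34 (SE 0.13, edgeR adjusted p = 0.0486). Hkdc1, named after its value was seen, fell from 5.30 ± 1.20 to 0.924 ± 0.156 CPM.

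The gene for the bifunctional enzyme Pfkfb3 rose from a moderate level. Pfkfb3 (ENSMUSG00000026773, chromosome 2, 11471433 to 11554077, minus strand), whose kinase activity far outweighs its phosphatase, measured 45.6, 47.4 and 48.2 CPM in controls and 157.9, 155.2 and 154.1 CPM in MCKO. Both groups were tight, and the mean was 3.31-fold higher, a rise of 1.79 on the log2 scale (SE 0.042, edgeR adjusted p = 3.58e-09). Pfkfb4 (ENSMUSG00000025648, chromosome 9, 108991778 to 109032228, plus strand), its relative, was erratic within groups. It held 0, 41 and 10 counts in controls 1, 2 and 3 and 0, 47 and 0 counts in MCKO. The exact Poisson 95% intervals cover counting error only. They were 29.4 to 55.6 for 41 counts, 4.80 to 18.4 for 10, 34.5 to 62.5 for 47 and 0 to 3.69 for 0. Libraries of the same group thus differed beyond counting error, and the 2 libraries numbered 2 were the high ones. Pfkfb4 did not pass the filter. Fitted without the filter, its log2 value was -0.24 (SE 2.11, edgeR adjusted p = 0.958), so no direction can be read for this gene.

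Around this control point, 5 of 6 tested genes rose and 1 fell. Pfkp, the platelet-type phosphofructokinase, rose from 410 ± 7.2 to 1325 ± 38 CPM, by 1.75 (SE 0.039), almost as Pfkfb3 did. Pfkfb2, the isoform best known from heart, rose by 1.25 (SE 0.070) and the liver-type Pfkl by 0.96 (SE 0.091). Pfkfb1 and the muscle-type Pfkm, named after their values were seen, rose by 0.46 (SE 0.12) and 0.25 (SE 0.048). Tigar, a phosphatase that lowers fructose 2,6-bisphosphate, fell from 31.6 ± 0.29 to 21.4 ± 1.0 CPM, by 0.50 (SE 0.057).

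**Figure D2:**
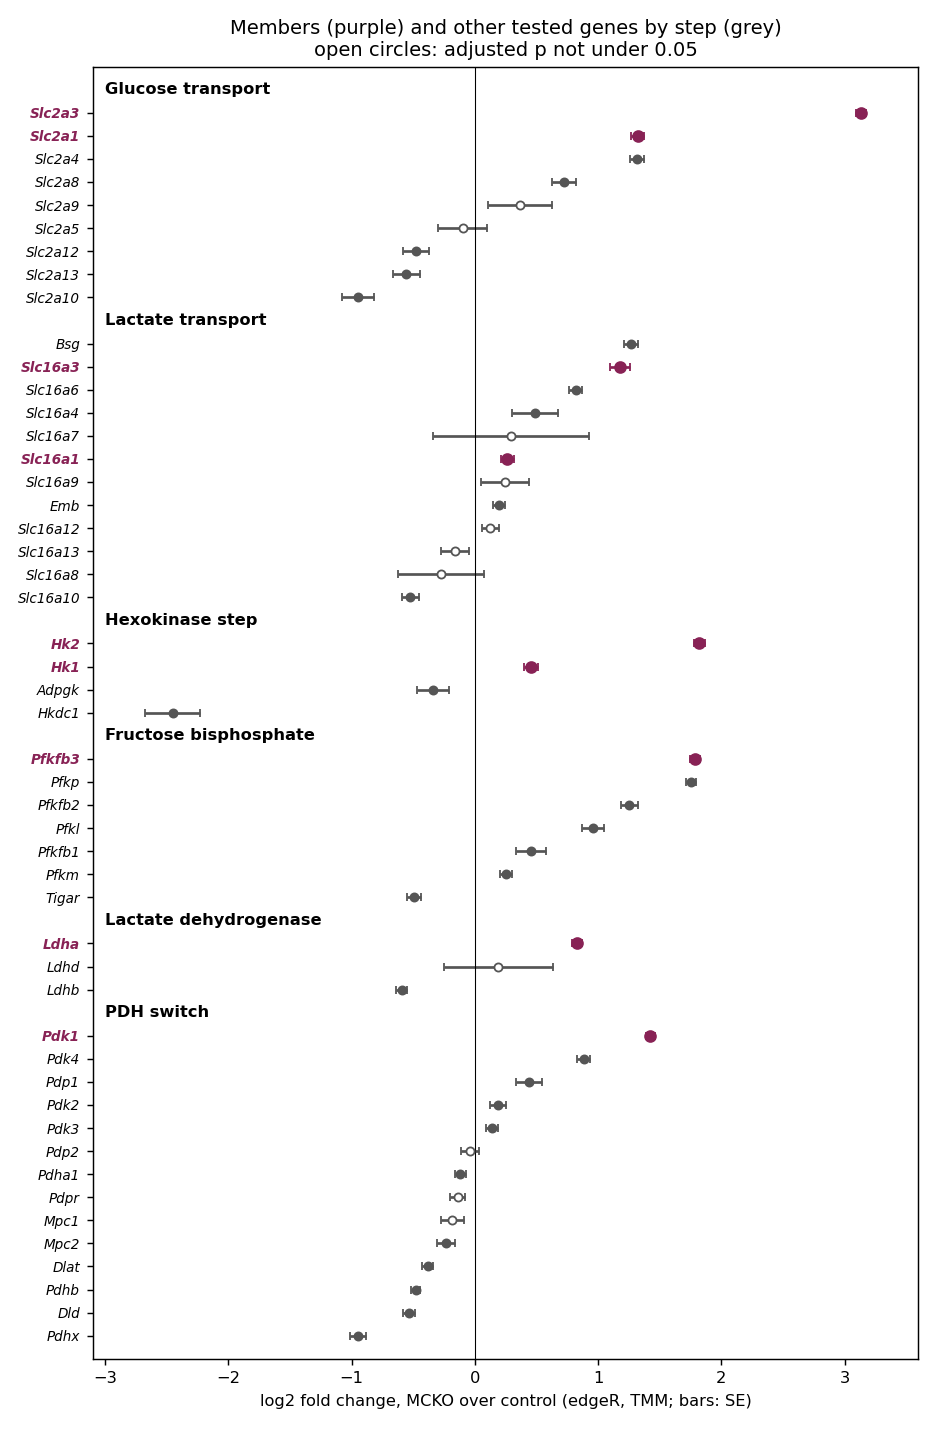
Log2 fold change, MCKO over control, with its SE (horizontal axis) for the 9 tested genes (purple) and other tested genes of each step (grey), with open circles for genes that did not pass an adjusted p of 0.05. The purple points are all right of 0, from 0.26 for Slc16a1 to 3.13 for Slc2a3, while the grey points lie on both sides of 0.

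The genes for the subunits of lactate dehydrogenase moved apart. Ldha (ENSMUSG00000063229, chromosome 7, 46841475 to 46855627, plus strand), whose product favours the making of lactate from pyruvate, measured 2372, 2450 and 2263 CPM in controls and 3947, 4003 and 4114 CPM in MCKO. It stood above 99.8% of tested genes in controls, and no control library came near the lowest MCKO library. Ldha rose by 0.83 on the log2 scale (SE 0.044, edgeR adjusted p = 4.73e-07). Ldhb, which encodes the B subunit typical of oxidative muscle, measured 165.3, 171.7 and 161.7 CPM in controls and 103.8, 105.2 and 107.9 CPM in MCKO, and fell by 0.59 (SE 0.043, edgeR adjusted p = 3.84e-06). The ratio of Ldha to Ldhb counts was 14.3, 14.3 and 14.0 in controls and 38.0, 38.1 and 38.1 in MCKO, 2.68-fold higher (exact permutation p = 0.1, adjusted 0.12), with almost no spread in either group. Ldha has 2 near-identical copies, Gm5452 and Gm9247, that the table does not list, so reads from them could have been counted as Ldha.

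Pdk1 rose with little spread. Pdk1 (ENSMUSG00000006494, chromosome 2, 71873224 to 71903858, plus strand), which phosphorylates and inactivates pyruvate dehydrogenase, measured 270.0, 260.7 and 276.1 CPM in controls and 700.8, 689.0 and 687.2 CPM in MCKO. The gap between the groups was many times the spread within them, and Pdk1 rose by 1.43 on the log2 scale (SE 0.038, edgeR adjusted p = 6.78e-09). The other kinase genes changed less. Pdk4, induced by fasting in adult muscle, rose by 0.88 (SE 0.054) from 18.1 ± 0.40 CPM, and Pdk2 rose by 0.19 (SE 0.066, edgeR adjusted p = 0.0343). Pdk3, named after its value was seen, rose by 0.14 (SE 0.049, edgeR adjusted p = 0.0309), with groups that overlapped in CPM. The Pdk1 to Pdk2 ratio went from 16.7, 14.9 and 17.0 to 37.5, 39.1 and 38.0, 2.37-fold higher (exact permutation p = 0.1, adjusted 0.12).

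Of the 13 other tested genes of this switch, 4 rose and 6 fell. The kinases, Pdk2 to Pdk4, were among the 4, and the genes for the 5 subunits of the complex they inhibit among the 6. Pdhx, which anchors the E3 subunit, fell from 51.9 ± 1.3 to 25.7 ± 2.3 CPM, by 0.95 (SE 0.068). Pdhb, part of the E1 enzyme, fell by 0.48 (SE 0.037) and Dld, the E3 subunit, by 0.53 (SE 0.052). Dlat, the pyruvate carrier gene Mpc2 and Pdha1, the E1 subunit that carries the phosphorylation sites, fell by 0.38 (SE 0.045), 0.23 (SE 0.073) and 0.12 (SE 0.043). These and the phosphatase gene Pdp1, which removes the phosphate and rose by 0.44 (SE 0.10), are named after their values were seen.

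**Figure D3:**
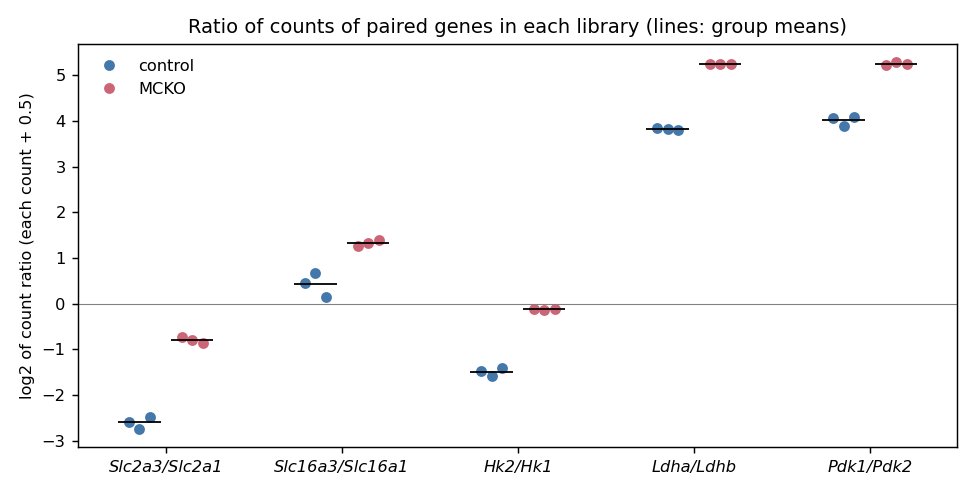
Log2 ratio of counts of related genes within each library (vertical axis, 0.5 added to each count) in control (blue) and MCKO (red), with lines at group means. All 5 ratios are higher in each MCKO library than in each control library, by 0.91 for Slc16a3/Slc16a1 to 1.81 for Slc2a3/Slc2a1.

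The order of the genes changed with these shifts. Levels per length, which are counts per kilobase of the longest coding transcript scaled to the same sum in each library as in TPM, allow a comparison between genes. In controls the order by this level was Ldha (2991 ± 76, SD, n = 3), Slc2a1 (682 ± 28), Hk1 (297 ± 18), Slc16a3 (165 ± 16), Slc16a1 (120 ± 10), Pdk1 (119 ± 5.3), Slc2a3 (92.5 ± 4.7), Hk2 (82.1 ± 3.8) and Pfkfb3 (22.5 ± 0.75). Slc16a1 and Pdk1 overlapped, and every other pair of neighbours was separate in all 3 libraries. In MCKO it was Ldha (5175 ± 45), Slc2a1 (1662 ± 40), Slc2a3 (791 ± 19), Hk1 (397 ± 5.7), Slc16a3 (363 ± 10), Pdk1 (312 ± 6.9), Hk2 (283 ± 3.9), Slc16a1 (141 ± 2.4) and Pfkfb3 (75.8 ± 1.9), with all neighbours separate. Slc2a3 thus moved from place 7 to place 3 and Slc16a1 from place 5 to place 8. With the union of exons as length, Slc2a3 and Hk2 changed places in controls, and in MCKO Hk1 dropped to place 7. Hk2, at 365, then lay above Hk1, at 278, so the order of these hexokinase genes in MCKO depends on the length used.

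**Figure D4:**
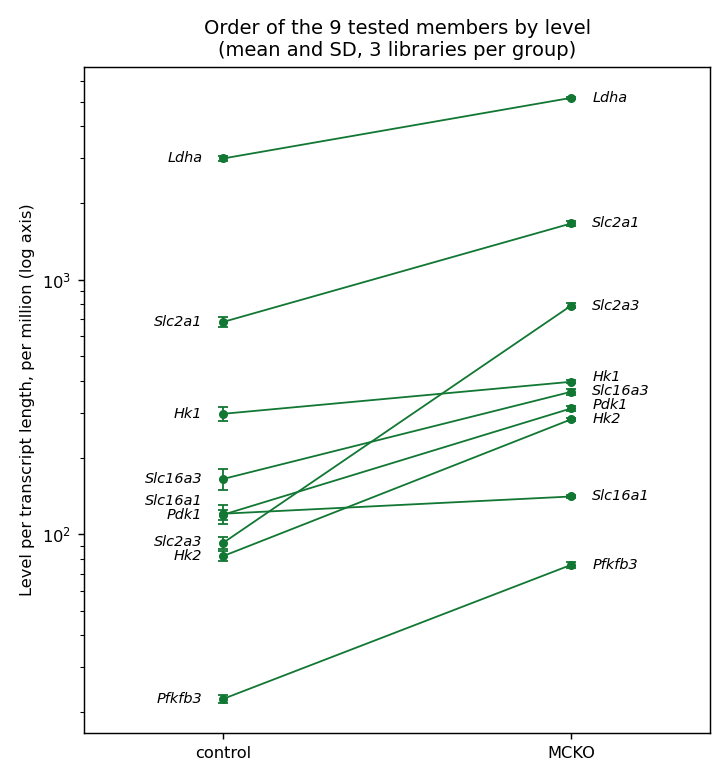
Level per transcript length (log axis, scaled as TPM) of the 9 tested genes in control and MCKO, as mean and SD of 3 libraries, joined by lines for each gene. The Slc2a3 line climbs from 92.5 to 791 and crosses those of 4 other genes, and the Slc16a1 line, from 120 to 141, is the flattest.

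Between the gates, the genes for enzymes of the glycolytic chain rose as well. Of 11 tested, 10 rose and 1 fell, with a median log2 fold change of 0.83. Aldoc, an aldolase of brain, rose from 8.72 ± 0.86 to 45.4 ± 1.6 CPM and Eno2, the neuronal enolase, from 9.32 ± 0.51 to 32.8 ± 1.4 CPM. Pgk1, the first enzyme of the chain to yield ATP, rose by 1.09 (SE 0.041), and has near-identical copies in the table. With them it summed to 1714, 1704 and 1701 CPM in controls and 3548, 3466 and 3595 CPM in MCKO, higher as for Pgk1 alone. The one that fell was Eno1, named after its value was seen, at -0.42 (SE 0.046). Its near-identical copies Eno1b and Gm4735 together held 369.7, 367.2 and 315.7 CPM in controls and 2002, 2058 and 2172 CPM in MCKO. Eno1 and these copies summed to 2711, 2760 and 2495 CPM in controls and 3658, 3683 and 3847 CPM in MCKO. The sum was thus higher in every MCKO library, opposite to Eno1 alone. Over the 8 pathway lists together, 33 of 68 tested genes rose and 19 fell, with a median of 0.19. Over all tested genes the shares were 29.3% and 29.1%.

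Of 15 known regulators of these genes, 6 rose and 4 fell, beside 29.3% and 29.1% of all tested genes. Egln3 and Egln1 encode oxygen-sensing prolyl hydroxylases that mark HIF for breakdown and are themselves HIF targets. Egln3 rose from 7.88 ± 0.89 to 104 ± 0.44 CPM, by 3.78 (SE 0.073), more than any of the 9 genes, and Egln1 by 1.92 (SE 0.048). Myc rose from 16.4 ± 1.7 to 36.4 ± 3.2 CPM, by 1.22 (SE 0.092). Hif1a, named after its value was seen, fell by 0.92 (SE 0.074). Epas1 and Arnt, named in the same way, were not called, and further regulators are given at the end.

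The tested genes whose change over the 6 libraries lay nearest to the median profile of the 9 were found by Euclidean distance of log2 CPM, less each gene's control mean, so that levels were not matched. They were Rcor2, at a distance of 0.061, Sars (0.076), Gstm1 (0.088), Sdr39u1 (0.089) and Gys1 (0.095). Rcor2 encodes a corepressor, Sars the cytosolic seryl-tRNA synthetase, Gstm1 a glutathione transferase and Gys1 the glycogen synthase of muscle. Gys1 rose from 219 ± 1.5 to 543 ± 9.7 CPM, by 1.37 (SE 0.038). The other 4 rose by 1.29 to 1.33.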

How the data were processed

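RNA, and no protein, was measured in 3 control and 3 MCKO heart libraries. The authors deposited estimated counts for each Ensembl gene, in whole numbers and without scaling for depth or length. Per the submitters' processing notes kallisto and the mouse build mm10 were used. Which transcripts were quantified and whether strand was used is not given in the sources used here, and the kit was a stranded TruSeq mRNA kit per the labels' protocols. Antisense genes overlap Slc2a1, Hk1, Hk2 and Pfkfb3, whose reads could be mixed with them. On the same strand, the processed pseudogene Gm4482 overlaps Slc2a3, and Gm43581 and Gm43585 overlap Slc16a1. Gm37975 overlaps Pfkfb3 and Mir1957a overlaps Slc2a1 in the same way, and a stranded kit does not separate these. Estimated counts of this kind share out reads that match several near-identical transcripts. The knockout columns read CKO where the titles read MCKO. IDs without a symbol (466) took 0.201 to 0.232% of counts. A count of 0 was taken to allow up to 3 counts, 0.0876 to 0.156 CPM. That is a fixed floor and not the Poisson interval given for Pfkfb4.

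The main test was edgeR 4.0.16 under R 4.3.3 (filterByExpr at its defaults, TMM, robust quasi-likelihood fit, group as the only term, 2-sided, Benjamini-Hochberg over 14697 genes, called at 0.05). Log2 fold changes include the TMM factors (1.02 to 1.03 in controls, 0.975 to 0.982 in MCKO), so they run slightly above the ratios of CPM. The test was also run on simulated counts in which only a small share of genes changed. In the real data 8587 of the 14697 genes were called, so that simulation does not cover changes this widespread. The labels do not tie a library to 1 heart, so p-values cover only the spread among these libraries, and that spread may be technical. The labels name no batch. The members and lists were chosen with earlier results of these data known. Genes named are the members, Cdc42, up to 4 called genes of each list (3 of the glycolytic enzymes and of the regulators) at 5 CPM or more by smallest p, the partners of the ratios, and the 5 nearest profiles. Some genes of the lists are counted but not reported here by name. Positions, lengths and exons came from GENCODE release M21 on GRCm38, and copies (95% identity over 80% of the copy) from BLAST+ 2.17.0.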

Additional observations from a re-analysis of the deposited data

How the results depend on the processing

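Under the alternative size factors, filters, tools (DESeq2 1.42.0, limma voom from limma 3.58.1), the stricter threshold of 0.01, the table without mitochondrially encoded and haemoglobin genes, and with each library left out, the 9 tested genes were all called higher. Leaving out the mitochondrially encoded and haemoglobin genes keeps the counts of the 9 genes as they are, so it does not test the part of red cells. At least 2-fold change left 6. Slc16a1, the smallest rise, ran from 0.20 to 0.32 (adjusted p up to 0.0129) and Slc2a3 from 3.07 to 3.15. With library totals only, 42.6% of calls were higher, against 50.2%, and the median of all genes shifted by -0.062. Of the pathway genes 30 to 34 were higher and 15 to 21 lower in the settings that kept the size rule, and 11 and 1 with at least 2-fold change, fewer by construction. Leaving out each library gave 30 to 33 and 15 to 19. For Pfkfb4, fits that kept it gave -0.88 without control replicate 1 and 0.43 without MCKO replicate 1, none called.

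The replicate numbers are shared between groups, but deviations of same-numbered libraries correlated at -0.00472, 0.0216 and -0.13, so they were not taken as pairs. With the replicate block, 7765 genes were called instead of 8587, and 9 of the 9 genes stayed higher, Slc2a3 by 3.14 and Slc16a1 by 0.27. The ratios keep their size when paired, and 3 pairs cannot go below an exact permutation p of 0.25. With 5 counts or none added, and with each library left out, the 5 ratios that could be read kept their direction, 0.77 to 1.04 for Slc16a3/Slc16a1, the widest range relative to its size. The Pfkfb4 to Pfkfb3 ratio rests on counts of 0 and was not read.

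With the union of exons as length, control levels per length were 874.8 for Slc2a1, 69.7 for Slc2a3, 165.9 for Slc16a1, 185.3 for Slc16a3, 205.5 for Hk1, 104.6 for Hk2, 19.7 for Pfkfb3, 2263 for Ldha and 109.7 for Pdk1. In the whole 300 base window, 50 bases after the start included, 66.1% of tested genes held the motif. Again all 9 members with a promoter in the table did, without Slc2a3 and with Pfkfb4. The Pfkfb4 counts did not follow depth, with 41 in the shallowest library and 0 in the deepest. Groups of 3 libraries are too small for a check of single outlying samples.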

Other observations

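The regulators did not move as one group, and those named here were chosen after their values were seen. Hif1a, which encodes the oxygen-regulated subunit of HIF, measured 402.6, 390.9 and 481.4 CPM in controls and 222.8, 214.8 and 207.6 CPM in MCKO. It fell by 0.92 on the log2 scale (SE 0.074, edgeR adjusted p = 1.22e-05), while 10 of 11 glycolytic enzyme genes rose. As background, HIF activity is controlled largely through breakdown of the protein, which RNA does not show. HIF protein and activity were not measured here, and their part in these changes was not tested. Epas1, the related subunit gene, was at 0.10 (SE 0.057, edgeR adjusted p = 0.157) and Arnt, the partner of both, at 0.11 (SE 0.045, edgeR adjusted p = 0.0554). Vhl and Mycn rose by 0.55 (SE 0.060) and 0.63 (SE 0.068), and Hif1an and Mlx fell by 0.28 (SE 0.039) and 0.19 (SE 0.058).

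The genes for the glucose-sensing arrestins moved in opposite directions. Txnip, which restrains glucose uptake and responds to glucose through MondoA and ChREBP, rose from 95.4 ± 0.71 to 130 ± 2.3 CPM, by 0.50 (SE 0.039). Arrdc4, its relative with the same known inducers, fell from 23.5 ± 0.74 to 13.1 ± 0.55 CPM, by 0.78 (SE 0.064). The genes of those sensors, Mlxip and Mlxipl, were at -0.0069 (SE 0.043) and 0.13 (SE 0.25), and neither was called.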
